A study of Homo sapiens with 18 samples.

Results

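The human mitochondrial genome is transcribed from both strands, and 9 of its 37 RefSeq genes are read from the light-strand promoter. They are 1 messenger RNA gene, MT-ND6 (ENSG00000198695), and 8 transfer RNA genes, which are MT-TQ (ENSG00000210107), MT-TA (ENSG00000210127), MT-TN (ENSG00000210135), MT-TC (ENSG00000210140), MT-TY (ENSG00000210144), MT-TS1 (ENSG00000210151), MT-TE (ENSG00000210194) and MT-TP (ENSG00000210196). All 9 were taken by Ensembl ID from 60666 IDs in each IP table, and 8 had a deposited adjusted p-value in all 4 comparison tables. The group was chosen on measured values, because MT-ND6, MT-TA and MT-TN had been seen among the largest rises of IP enrichment over empty vector. Both comparisons with empty vector are therefore given as a description only. Tests are given for R-mutant against ADAR3 WT, which reuses the IP libraries of those comparisons and is not independent of the choice, and for the input RNA.

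The measurements are RNA immunoprecipitation sequencing (RIP-seq) of U373-MG, a human glioblastoma cell line, transduced with retrovirus and grown under G418. The 3 genotypes were FLAG-tagged ADAR3 with a mutated R-domain (R-mutant), FLAG-tagged wild-type ADAR3 (ADAR3 WT) and empty vector (control). Each gave 3 IP and 3 input libraries, 18 in all, from cells crosslinked with UV light at 150 mJ/cm2. The study addressed what the R-domain does for the binding of ADAR3 to RNA. ADAR3 protein in these cells came from a transgene, and its amount per cell was not analysed here. The labels number the replicates without saying whether they were separate cultures, so errors cover only how much these libraries vary, and that may be technical variation. Values per library were not analysed here, the depth of each library is unknown, and each value below is a mean or a fold change over libraries with its deposited standard error. The tables pair no ID with a symbol, so the ADAR3 transcript and the markers of the cell line were not checked by name.

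ADAR3 belongs to the family of adenosine deaminases that act on double-stranded RNA, and it carries double-stranded RNA-binding domains but has no known deaminase activity. In mitochondria, each strand is copied into a long precursor that spans most of the genome, and transfer RNAs are cut out of it to release the RNAs between them. Most of the light-strand precursor is not coding and is normally degraded by a helicase and nuclease complex of SUV3 and PNPase. Where light-strand RNA accumulates, it can pair with the complementary heavy-strand RNA, and such pairs are a known source of double-stranded RNA in human cells.

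Some members lie next to one another on the precursor, and others lie far apart. All 9 were matched by symbol to RefSeq (GRCh38.p14, mitochondrial chromosome). In the direction of transcription from the light-strand promoter, the first is MT-TP at chrMT:15956-16023, the transfer RNA for proline. It is followed after 1213 bases by MT-TE at chrMT:14674-14742, for glutamate, which directly abuts MT-ND6 at chrMT:14149-14673. MT-ND6 encodes a subunit of respiratory complex I and is the one messenger RNA of this strand. A gap of 6634 bases separates it from MT-TS1 at chrMT:7446-7514, a transfer RNA for serine. Then come MT-TY at chrMT:5826-5891 for tyrosine, MT-TC at chrMT:5761-5826 for cysteine, MT-TN at chrMT:5657-5729 for asparagine and MT-TA at chrMT:5587-5655 for alanine. MT-TQ, for glutamine, lies last at chrMT:4329-4400. The transfer RNA genes are 66 to 73 bases long and MT-ND6 is 525 bases long.

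MT-TY and MT-TC share 1 base, and MT-TQ shares 3 bases with the gene for isoleucine transfer RNA on the other strand. No other annotated gene overlaps a member, but the heavy-strand precursor runs across all of them. The library kit keeps strand, while the strand setting of the counting is not given in the sources used here. Reads of a member and of the heavy-strand RNA opposite to it therefore cannot be told apart from these tables. Nuclear copies of mitochondrial DNA can share reads with the members as well, and how such reads were counted is not given in the sources used here.

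MT-ND6 was by far the most abundant member in input RNA. In the authors' deposited input table its mean normalized count was 35006, or 66.7 per base of gene length. The transfer RNA with the highest level per base was MT-TP, at 28.1 on a mean of 1908. MT-TA and MT-TS1 followed with 13.5 and 13.0 mean normalized counts per base, on means of 932 and 897. MT-TE had 5.39, MT-TY 3.24, MT-TQ 2.84 and MT-TN 1.35 mean normalized counts per base. The 7 measured transfer RNA genes thus spread over 20.8-fold per base, with no steady order along the precursor. MT-TA and MT-TN lie 1 base apart and had 13.5 and 1.35 mean normalized counts per base. Genes this short are close to the size of sequenced fragments, so a read that only reaches into such a gene can count for it.

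**Figure D1:**
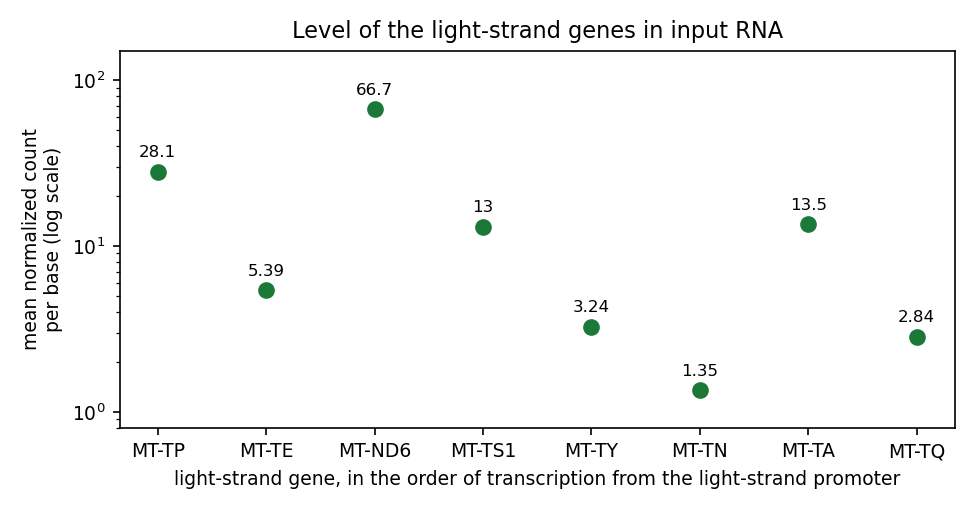
Mean normalized count per base of gene length (log scale) of the 8 measured light-strand genes in the authors' input table, in order of transcription. Each point is the mean over the libraries of that table, without an error because values per library were not analysed. MT-ND6 stands at 66.7, above MT-TP at 28.1, and MT-TN is lowest at 1.35.

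MT-TC was listed at a mean of 0 in each of the 3 IP tables in the authors' deposited tables. MT-TC was not listed in the authors' input table, where no ID had a mean of 0. Its neighbours MT-TY and MT-TN were both counted. A mean of 0 was shared by 23545 of 60666 IDs (38.8%) in the table of ADAR3 WT over control. The cause for MT-TC was not tested, and no fold change exists for it.

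In the FLAG IP of ADAR3 WT, all 8 measured light-strand genes had higher enrichment than in control. IP enrichment is given as a log2 fold change, read as IP over input in one genotype divided by IP over input in the other. By itself, such a value cannot tell high IP over input with ADAR3 from low IP over input in control. MT-ND6 stood highest, at 4.85 ± 0.24 (SE) in the authors' deposited table, or 28.8-fold on a mean normalized count of 39983. The 7 transfer RNAs were higher by 4.51-fold to 8.22-fold. Among them, MT-TA was at 3.04 ± 0.41 (log2), MT-TQ 2.92 ± 0.34 and MT-TE 2.88 ± 0.30 in the authors' deposited table. MT-TY followed at 2.69 ± 0.37, MT-TS1 at 2.65 ± 0.22, MT-TN at 2.62 ± 0.60 and MT-TP at 2.17 ± 0.23 in the same deposited table by the authors.

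The transfer RNAs were close to one another on this scale. Their SD across genes was 0.28, about the size of their own standard errors, around a median of 2.69. MT-ND6 lay 2.15 above that median on the log2 scale, or 4.45-fold, although MT-TE abuts it on the precursor. MT-TP, the first gene after the promoter and the most abundant transfer RNA per base, had the lowest enrichment. The median log2 fold change of all 21121 tested IDs was 0.01, and that of the 8 members was 2.79. Each fold change was divided by its standard error and set against a normal distribution, two-sided, with Benjamini-Hochberg adjustment over all tested IDs and a threshold of 0.05. By this normal test, 8 of 8 members were called higher, beside 5.99% of all tested IDs. Because this contrast chose the members, nothing is read from that count. With the statistic centred and rescaled to its spread over all IDs, a setting added after the data had been seen, MT-TN was no longer called (adjusted p 0.158).

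**Figure D2:**
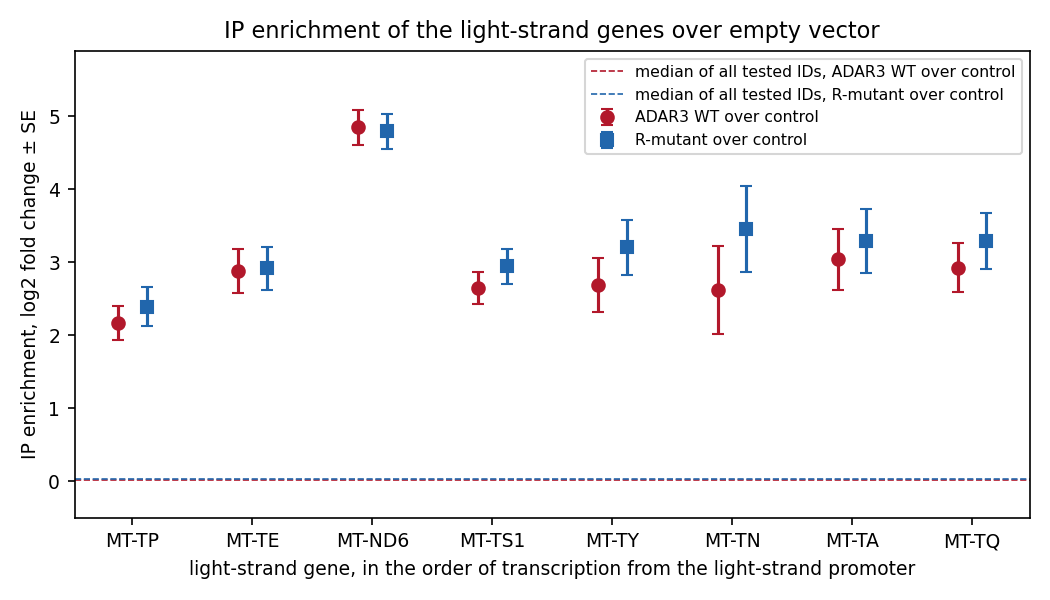
IP enrichment (log2 fold change ± SE, authors' deposited values) of the 8 measured light-strand genes in order of transcription, for ADAR3 WT over control (circles) and R-mutant over control (squares). Dashed lines are the medians of all tested IDs. MT-ND6 lies at 4.85 and 4.80, and the transfer RNAs lie between 2.17 and 3.46.

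The R-mutant gave a like picture against the same control libraries. MT-ND6 was at 4.80 ± 0.24 in the authors' deposited table, or 27.8-fold on a mean normalized count of 37919. The transfer RNAs were higher by 5.25-fold to 11.0-fold, with a median log2 fold change of 3.21 and an SD across genes of 0.36. MT-TN stood first among them at 3.46 ± 0.59 in the authors' deposited table, on a mean normalized count of 98.3, the smallest of the group. MT-TQ was at 3.30 ± 0.38, MT-TA at 3.29 ± 0.44 and MT-TY at 3.21 ± 0.38 in the authors' deposited table. MT-TS1 was at 2.95 ± 0.24, MT-TE at 2.92 ± 0.30 and MT-TP at 2.39 ± 0.27 in the same deposited table by the authors.

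MT-ND6 lay 1.59 above the transfer RNA median in the R-mutant, or 3.01-fold, so the gap was narrower than the 2.15 in ADAR3 WT. That difference between gaps was not tested. MT-TP again had the lowest value. By the same normal test, 8 of 8 members were called higher in the R-mutant, beside 5.38% of all 21120 tested IDs, and again nothing is read from the count. Counts were normalized between libraries in both comparisons, so higher means higher relative to the other RNAs in the library.

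Ranks by fold change use the values that chose the group. Among the IDs whose mean reached 50, the light-strand genes filled most of the first 10 places. Of the first 20, they held 7 in ADAR3 WT over control and 8 in R-mutant over control. In ADAR3 WT over control they held 7 of the first 10 places among 13617 IDs, and MT-TP was at place 23. In R-mutant over control they held 6 of the first 10 among 13515 IDs, with MT-TE at place 11 and MT-TP at place 18. The highest ID outside the group was ENSG00000210049 in both tables, which the files pair with no symbol and which was picked after its values were seen. It was at place 5 with 2.84 ± 1.14 for ADAR3 WT, and at place 3 with 3.32 ± 1.14 for the R-mutant, both from the authors' deposited tables. Its standard error was the largest among the first 20 places in both tables, while those of the members lay between 0.22 and 0.60. Mitochondrial genes outside the group were not identified among the IDs. Whether high places are particular to the light strand was therefore not tested.

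**Figure D3:**
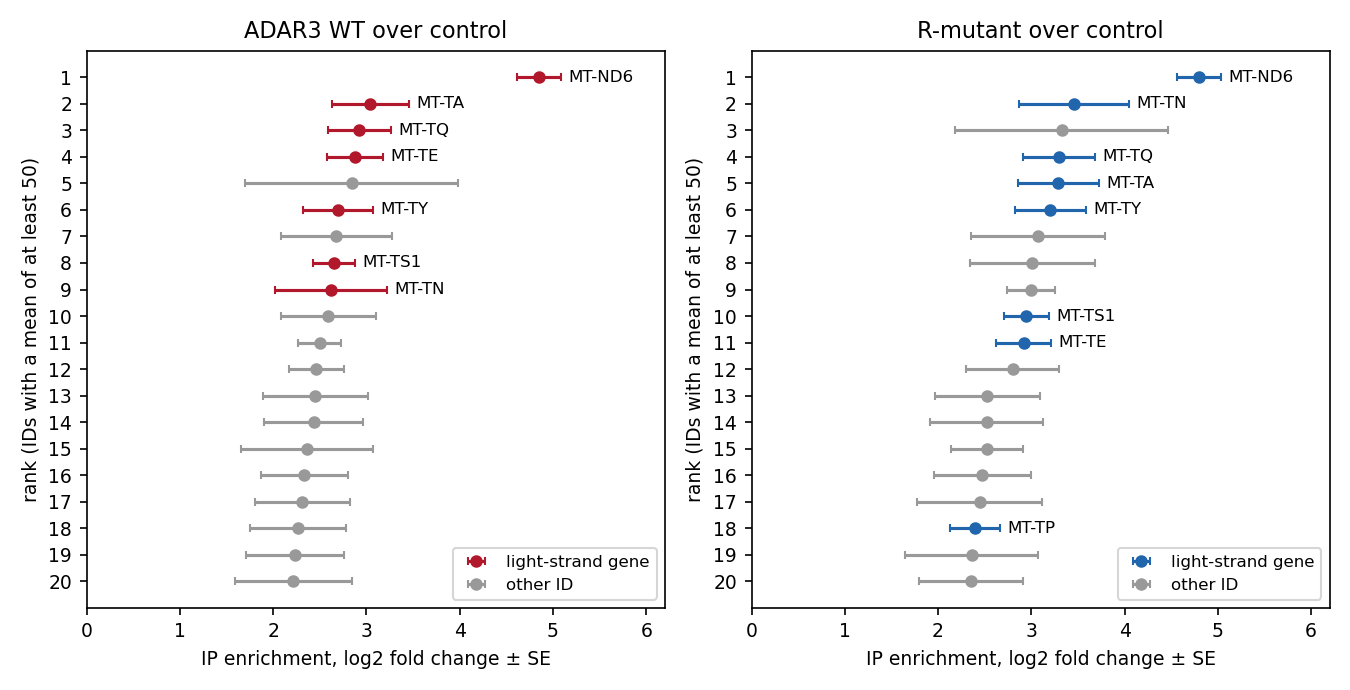
The 20 IDs with the highest IP enrichment (mean of 50 or more), for ADAR3 WT over control (left) and R-mutant over control (right), as log2 fold change ± SE from the authors' tables. Light-strand genes are coloured and named, and other IDs are grey. Of the first 10 places, 7 in the left and 6 in the right panel are light-strand genes.

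MT-ND6 differed from the other high IDs in its level. The plot of mean against fold change shows the transfer RNAs at means from 84.4 (MT-TN) to 1949 (MT-TP) in ADAR3 WT over control, a range that holds many other IDs. MT-ND6, at a mean of 39983, belonged to the 383 IDs whose mean reached 10000, of which 4 were at least 2-fold higher. In R-mutant over control it was among 326 such IDs, of which 2 were at least 2-fold higher. In the authors' deposited table of R-mutant over ADAR3 WT, which is normalized separately, the members' means were 1.53 to 1.93 times those in ADAR3 WT over control. The median ratio of the same means over 13548 IDs that reached a mean of 50 in both was 1.06, and the 95th percentile was 1.31. These means may cover IP and input libraries together, so they do not measure the IP alone. R-mutant over ADAR3 WT has R-mutant libraries in place of the control ones. Higher means there are thus another form of the members' rise over control, which chose the group, and nothing further is read from them.

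**Figure D4:**
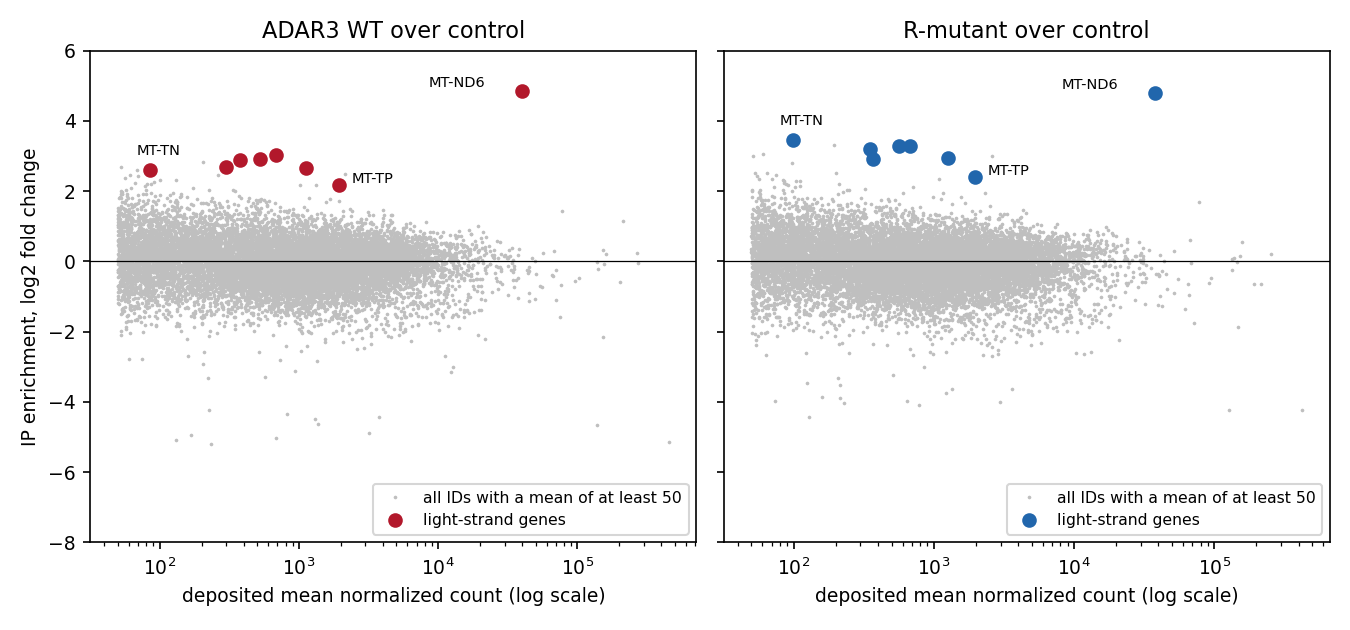
IP enrichment (log2 fold change) against the deposited mean normalized count (log scale) for ADAR3 WT over control (left) and R-mutant over control (right). Grey points are all IDs whose mean reached 50, and coloured points are the 8 measured light-strand genes, with MT-ND6, MT-TN and MT-TP named. MT-ND6 stands apart at means of 39983 and 37919.

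R-mutant set directly against ADAR3 WT asks whether the R-domain mutation altered their enrichment. For each member the direct value was at most 0.02 on the log2 scale from the difference between its values over control, which chose the group, so the p-values here are not independent of that choice. None of the 8 was called (normal test, adjusted p of 1.00 for each), beside 0.00428% of all 23385 tested IDs. At an unadjusted p under 0.05 there was 1 of 8, beside 0.624% of all tested IDs. The authors' deposited table gives MT-ND6 at -0.07 ± 0.19 (log2), or 0.955-fold with a 95% interval from 0.736-fold to 1.24-fold. No 2-fold difference lay within the interval of MT-ND6, nor within those of 7 of 8 members in all, beside 55.2% of all tested IDs.

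All 7 transfer RNAs had values above 0 in this comparison, and MT-ND6 did not. The member with an unadjusted p under 0.05 was MT-TN, which the authors' deposited table gives at 0.84 ± 0.30 (p 0.00498 by the normal test, adjusted p 1.00), or 1.79-fold with a 95% interval from 1.19-fold to 2.69-fold. It was at place 12 of 13789 ranked IDs, and its mean normalized count of 147 was the lowest of the members. MT-TY was at 0.49 ± 0.26 and MT-TQ at 0.35 ± 0.29 in the authors' deposited table. MT-TS1 was at 0.29 ± 0.18, MT-TA at 0.23 ± 0.31, MT-TP at 0.21 ± 0.22 and MT-TE at 0.03 ± 0.22 in the same deposited table by the authors. The median of the 8 members was 0.26, against a median of -0.02 over all tested IDs, of which 46.1% lay above 0. The members share libraries and a precursor, so their signs are not independent of one another.

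Across all IDs, the robust spread of fold over standard error was 1.59 for ADAR3 WT over control and 1.60 for R-mutant over control. It was 0.657 for input RNA, below the 1 that well-sized errors would give. In R-mutant over ADAR3 WT it was 0.605, also below 1. When the statistic was centred and rescaled to that spread, a setting added after the data had been seen, MT-TN was called (adjusted p 0.00164) and the other 7 were not, beside 0.334% of all tested IDs. MT-TN was one of the genes whose enrichment over control chose the group, and its direct value of 0.84 is in effect 3.46 in the R-mutant minus 2.62 in ADAR3 WT, so that call is a description and no independent test. The authors' likelihood ratio test passed 7 of 8 members in the authors' deposited table, all but MT-TA (adjusted p 0.803), beside 51.1% of all tested IDs. That test has 7 degrees of freedom and so covers more terms than the fold change. It passed 8 of 8 in ADAR3 WT over control, beside 43.0% of all tested IDs, and 8 of 8 in R-mutant over control, beside 40.8%.

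The values side by side were close to additive. R-mutant over control minus ADAR3 WT over control was -0.05 for MT-ND6, against the direct value of -0.07, and 0.84 for MT-TN, against 0.84. The 3 comparisons share libraries pairwise, so this is arithmetic on common data and not a repeat.

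In input RNA, the light-strand genes did not pass the test between ADAR3 WT and control. None of the 8 was called (normal test, adjusted p of 1.00 for each), beside 0.289% of all 20411 tested IDs, and none had an unadjusted p under 0.05, beside 2.92%. The authors' deposited table gives MT-ND6 at -0.13 ± 0.18 (log2), or 0.915-fold with a 95% interval from 0.712-fold to 1.18-fold. The largest values were those of MT-TS1 at 0.39 ± 0.25 and MT-TP at 0.33 ± 0.24 in the authors' deposited table. MT-TA was at 0.26 ± 0.23, MT-TQ at 0.25 ± 0.22, MT-TN at 0.18 ± 0.27, MT-TY at 0.14 ± 0.37 and MT-TE at -0.0034 ± 0.23 in the same deposited table by the authors. No 2-fold difference lay within the 95% intervals of 8 of 8 members, beside 66.8% of all tested IDs. The median of the members was 0.21, against 0.03 over all tested IDs. An input table for the R-mutant was not analysed here.

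**Figure D5:**
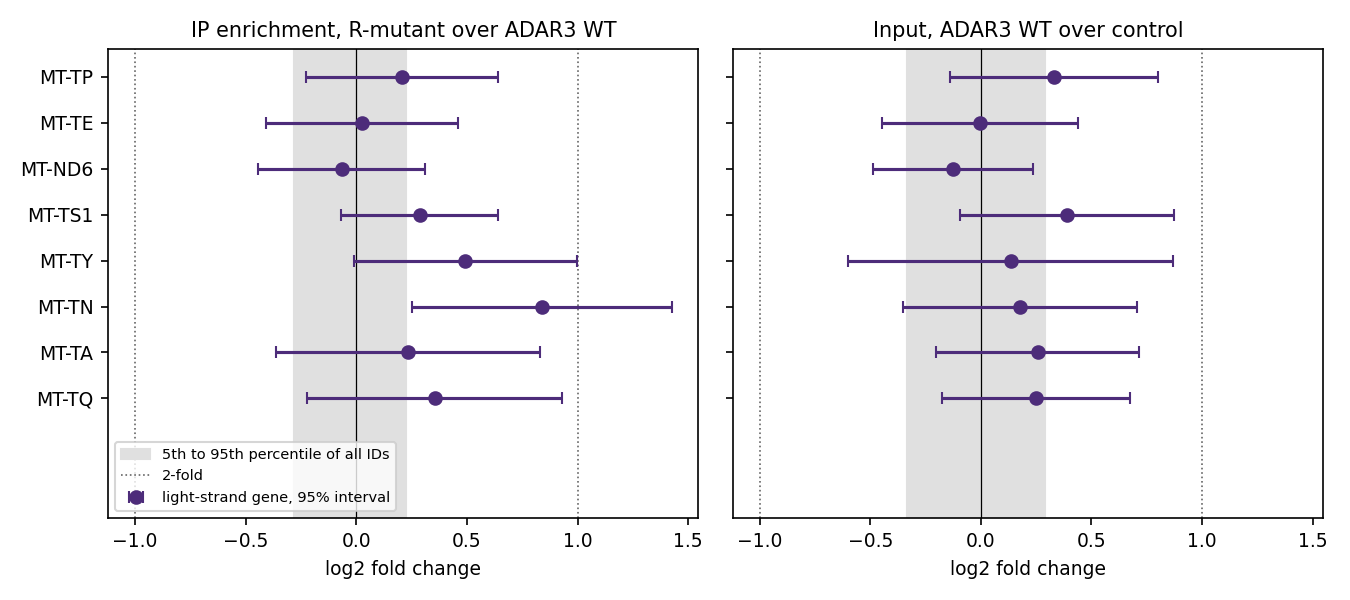
Log2 fold change with its 95% interval of the 8 measured light-strand genes for IP enrichment of R-mutant over ADAR3 WT (left) and for input RNA of ADAR3 WT over control (right). The grey band runs from the 5th to the 95th percentile of all IDs whose mean reached 50, and dotted lines mark 2-fold. MT-TN at 0.84 is the one member whose interval lies above 0, in the left panel, and no member's interval leaves 0 in the right panel.

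The 5 IDs most like MT-ND6 over the 4 comparisons were other light-strand genes, while an ID outside the group lay nearer to the transfer RNA median than 3 of the 7 transfer RNAs did. Likeness was the Euclidean distance over the 4 log2 fold changes, among 13284 IDs that reached a mean of 50 in all 4 tables. The nearest were MT-TA at a distance of 2.40, MT-TQ at 2.50, MT-TE at 2.73, MT-TY at 2.75 and MT-TN at 2.77. These distances are large because no other ID came near the enrichment of MT-ND6. The nearest ID outside the group was ENSG00000230021 at 3.02, which the files pair with no symbol. It was also the fifth nearest of all IDs to the median of the transfer RNAs, at a distance of 0.38, behind MT-TY, MT-TQ, MT-TS1 and MT-TA but ahead of MT-TE, MT-TN and MT-TP. Its IP enrichment was 2.50 in ADAR3 WT over control and 3.00 in R-mutant over control in the authors' deposited tables. Whether this ID is a nuclear copy of mitochondrial DNA, or shares reads with the members, was not tested. Both comparisons with control enter the distance and chose the group. MT-ND6 was highest in each, so the IDs nearest to it had to come from those next in enrichment. The comparisons also share libraries, so likeness is a description of these tables only.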

How the data were processed

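Per the submitters' processing notes, STAR 2.7.7a, featureCounts and DESeq2 were used with GRCh38, while the annotation, strand setting and model are not given there. The 4 deposited tables hold, per the file headers, a mean normalized count (a signal, the mean of size-factor-normalized counts), a log2 fold change, its standard error on that scale, a test statistic (a score) and p-values with adjusted p-values. In the 3 IP tables the deposited p-values are those of a chi-square test with 7 degrees of freedom. In the input table the deposited score equals fold over standard error. The tests here were two-sided normal tests of the fold divided by its error, with Benjamini-Hochberg adjustment over every ID with a deposited adjusted p-value, and 95% intervals come from the same errors. The procedure was run on simulated fold changes with noise drawn at the deposited standard errors. Such noise is well sized by design, so the simulation cannot show whether the deposited errors are.

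The reading of the IP fold change as IP over input is not stated in the labels. Among IDs with an input mean under 10, its slope on the input fold change was -0.79 for ADAR3 WT over control and 0.48 for R-mutant over ADAR3 WT, the signs that input in the denominator gives. The input table also holds 6 columns of single libraries that were left out, because no label matches their names. The members, lists and tests were chosen with earlier results of these data known. The text names all members, and the other IDs nearest to MT-ND6 and to the transfer RNA median. The planned lists of other mitochondrial genes, nuclear genes and cell markers were not used, because the files pair no ID with a symbol. No sequence of a member is shown, since no table used here holds one. Alternatives were the authors' adjusted p-value, a stricter threshold, a fold minimum and other filters on the mean. Scripts ran in Python 3.11.15 with pandas 2.3.3, scipy 1.17.1 and numpy 2.4.6, and plots in matplotlib 3.10.9.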

Additional observations from a re-analysis of the deposited data

How the results depend on the processing

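No paired analysis was possible because the values per library match no label, and leaving out a replicate was not run for the same reason. The planned settings left the members' counts as reported in all 4 comparisons, with 1 exception. By the authors' adjusted p-value, 7 members passed in R-mutant over ADAR3 WT in place of 0, by a test that covers more terms than the fold change. Rescaling the statistic, added after the data had been seen, gave 1 there (MT-TN), and MT-TN was no longer called in ADAR3 WT over control (adjusted p 0.158), where the other 7 were called. Of 192 combinations of member, comparison and setting, 183 kept their side of the threshold. Many of them could not change, because a stricter threshold and a fold minimum can only remove calls. In input, the authors' adjusted p-value comes from the same test as the one used here. Values over control also chose the members, so this count does not measure robustness. Medians relative to all tested IDs moved by less than a standard error. Depth per library is unknown. MT-TN, with the lowest mean, had the largest standard errors against control.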
